A study of Arabidopsis thaliana with 23 samples.

Results

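The 10 genes *JAZ1* to *JAZ10* encode JASMONATE ZIM-DOMAIN proteins, the repressors of jasmonate signalling in *Arabidopsis thaliana*. They were taken by their loci, and all 10 were found among 37887 annotated nuclear genes. In TAIR10 coordinates these are *JAZ1* (AT1G19180, chr1:6621777-6623668, plus strand), *JAZ2* (AT1G74950, chr1:28148574-28150446, minus), *JAZ3* (AT3G17860, chr3:6119707-6123044, plus), *JAZ4* (AT1G48500, chr1:17931390-17934662, plus) and *JAZ5* (AT1G17380, chr1:5955155-5957511, minus). The others are *JAZ6* (AT1G72450, chr1:27273968-27276562, minus), *JAZ7* (AT2G34600, chr2:14573030-14573952, plus), *JAZ8* (AT1G30135, chr1:10596352-10597341, plus), *JAZ9* (AT1G70700, chr1:26654529-26657350, plus) and *JAZ10* (AT5G13220, chr5:4218786-4221077, plus). Histone H4 acetylation (H4ac) and trimethylation of lysine 27 of histone H3 (H3K27me3) had been measured by ChIP-Seq in whole seedlings. The plants were wild type (WT, the DR5 line) or *axe1-5*, a mutant of the histone deacetylase HDA6. At 12 days of age they were moved for 3 h to plates with 50 µM methyl jasmonate (MeJA) or to mock plates, so that each genotype had a mock and a MeJA group, the latter written WT +MeJA or *axe1-5* +MeJA. Each group had 2 H4ac libraries. H3K27me3 had 2 libraries in each group except WT +MeJA, where only replicate 2 was analysed here. *axe1-5* is a single mutant line, so the genotype comparisons rest on that allele alone.

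JAZ proteins bind transcription factors such as MYC2 and bring in co-repressors through NINJA. When the bioactive jasmonate binds the receptor COI1, JAZ proteins are ubiquitinated and degraded, and the transcription factors are released. Most *JAZ* genes are themselves induced by jasmonate, which refills the pool of repressors. Acetylation of the H4 tail is typical of active genes and is removed by deacetylases such as HDA6, while H3K27me3 is set by Polycomb complexes at genes that are silent in some cells or stages.

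The value of a gene in a library was the highest fold enrichment over input of the MACS peaks whose summit lay inside the locus, written as 0 where there was no such peak. Fold enrichment is a ratio of tags in the peak to those predicted from the input. A gene was called gained when, in both replicates, it had a summit that was missing in the control library of the same number, or at least 2 times the control value. The lost rule was the mirror image. H4ac libraries retained 3235473 to 14717755 tags and held 12065 to 15727 peaks, and H3K27me3 libraries retained 577986 to 8879066 tags and held 2348 to 9114 peaks. The depth and the median fold enrichment of a list (5.9 to 10.7 for H4ac) differed between libraries. For H4ac, every MeJA library retained more tags (8700467 to 14717755) than any mock library (3235473 to 7222121). MeJA and depth therefore cannot be told apart where H4ac is compared between MeJA and mock. Within each treatment, both *axe1-5* H4ac libraries also retained more tags than either WT library. In mock these were 7025483 and 7222121 against 5927987 and 3235473 tags. With MeJA they were 10569841 and 14717755 against 8700467 and 9840934 tags. Genotype and depth therefore cannot be told apart either where H4ac is compared between *axe1-5* and WT. The part of depth in all these differences was not tested. The chlorophyll-binding protein gene *LHCB1.3* had H4ac in 8 of 8 libraries, and *RBCS1A* and *PSBO1* had an H4ac summit in 5 and 3. The flower and seed genes *AG*, *AP3*, *PI*, *LEC2* and *FUS3* had H3K27me3 in 7 of 7. Of these, *PI* also held an H4ac summit in 3 of 8 libraries, and *AG*, *AP3*, *LEC2* and *FUS3* in none. The root gene *SHR* had both marks in every library. These are whole seedlings, so a mark in more cells and more of a mark per cell cannot be told apart.

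The promoters of 4 members whose H4ac differed between groups are shown here, because jasmonate-responsive factors such as MYC2 bind the G-box CACGTG and its relative AACGTG. Each is the 250 bases before the annotated start, read 5′ to 3′ on the gene's strand from the TAIR10.1 genome, with matches to CACGTG or AACGTG on either strand in capitals. *JAZ3* is at chr3:6119457-6119706 (plus strand), *JAZ6* at chr1:27276563-27276812 (minus strand), *JAZ8* at chr1:10596102-10596351 (plus strand) and *JAZ10* at chr5:4218536-4218785 (plus strand).
JAZ3: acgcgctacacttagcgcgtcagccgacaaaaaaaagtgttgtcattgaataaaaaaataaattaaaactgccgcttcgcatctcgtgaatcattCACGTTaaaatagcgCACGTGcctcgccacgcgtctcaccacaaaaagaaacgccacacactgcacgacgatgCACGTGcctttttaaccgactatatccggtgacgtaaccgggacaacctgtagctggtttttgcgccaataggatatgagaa
JAZ6: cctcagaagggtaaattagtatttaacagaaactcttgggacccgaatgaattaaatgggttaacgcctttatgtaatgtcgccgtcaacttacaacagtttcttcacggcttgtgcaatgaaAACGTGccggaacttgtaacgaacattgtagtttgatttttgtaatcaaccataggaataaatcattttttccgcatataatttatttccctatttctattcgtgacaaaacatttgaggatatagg
JAZ8: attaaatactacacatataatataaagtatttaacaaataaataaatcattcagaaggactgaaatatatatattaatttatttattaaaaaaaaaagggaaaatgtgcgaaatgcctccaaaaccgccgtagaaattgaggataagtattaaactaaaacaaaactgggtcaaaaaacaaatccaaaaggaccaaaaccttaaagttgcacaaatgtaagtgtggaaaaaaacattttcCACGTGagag
JAZ10: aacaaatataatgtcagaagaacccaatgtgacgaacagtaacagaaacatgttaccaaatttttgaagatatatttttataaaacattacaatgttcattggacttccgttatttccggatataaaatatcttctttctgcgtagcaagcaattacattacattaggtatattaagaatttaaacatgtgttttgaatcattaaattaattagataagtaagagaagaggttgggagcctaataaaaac
The *JAZ3* window held 2 G-boxes, 140 to 135 and 82 to 77 bases before the start, beside a CACGTT 155 to 150 bases before it. The *JAZ6* window held an AACGTG 127 to 122 bases before the start. The G-box of *JAZ8* lay 10 to 5 bases before the start, and the *JAZ10* window held neither motif. Over all 10 members, CACGTG was in the 250-base window of 4 (*JAZ2*, *JAZ3*, *JAZ7* and *JAZ8*), while 6.49% of 27431 protein-coding promoters held it. In 1000-base windows it was in 8 members and in 14.8% of promoters, and *JAZ4* and *JAZ10* were the members without it. AACGTG was in 3 of the 250-base windows (*JAZ3*, *JAZ5* and *JAZ6*) against 7.53% of promoters, and in 8 of the 1000-base windows against 23.8%. A match here is a string in the window and not a measured binding site.

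H4ac was found at most of the family in mock WT, and H3K27me3 at very little of it. In each H4ac library 5 or 6 of the 10 members held a summit and 7 to 9 were touched by a peak. Over the 8 libraries, *JAZ1* and *JAZ4* never held an H4ac summit and the other 8 members did at some point. Only *JAZ2* and *JAZ10* held one in all 8. H3K27me3 summits were found at *JAZ4* and *JAZ10* only, in 3 and 4 of 7 libraries, and no H3K27me3 peak overlapped any of the other 8 members.

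**Figure D1:**
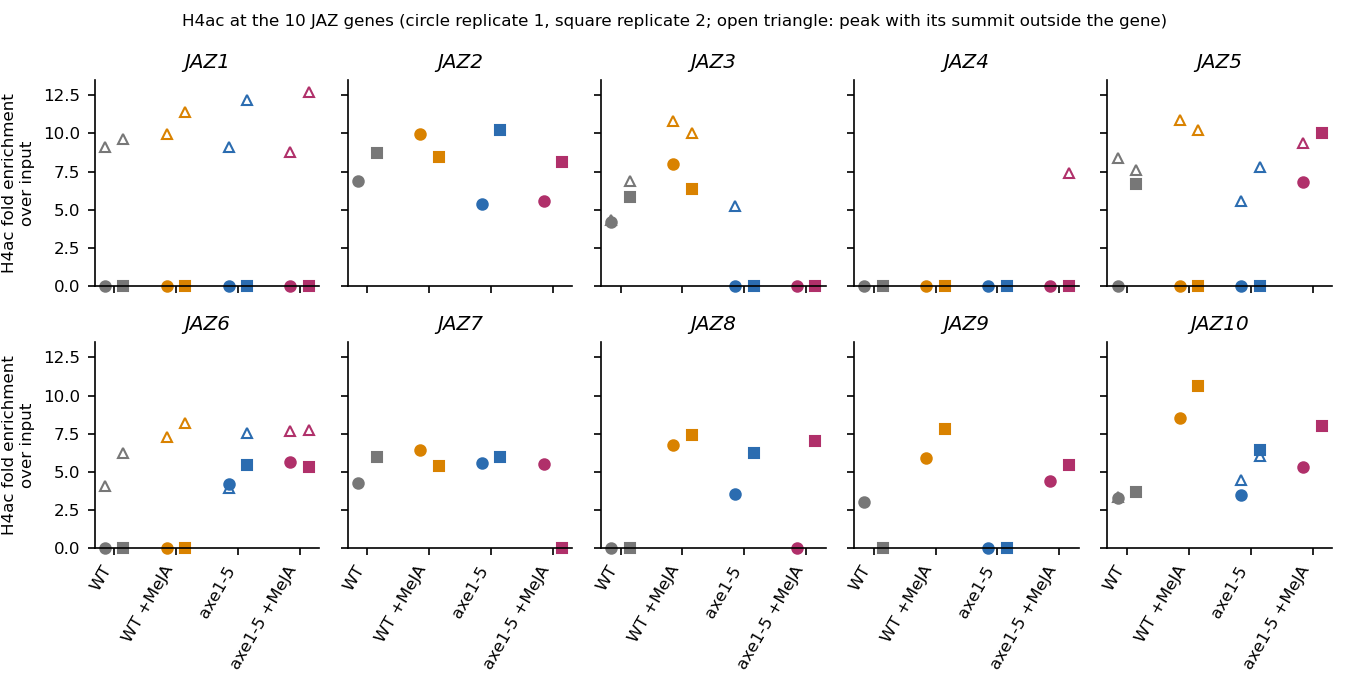
H4ac fold enrichment over input (vertical axes) at each *JAZ* gene in the 4 groups, with 1 symbol per library. Circles are replicate 1 and squares replicate 2, at 0 where no summit lay in the gene, and open triangles are peaks that overlapped the gene with their summit outside it. *JAZ9* was higher in the 4 MeJA libraries, *JAZ3* was at 0 in the 4 *axe1-5* libraries, and *JAZ1* had open triangles in all 8.

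After MeJA in WT, the rule called *JAZ8* and *JAZ10* gained and no member lost. These are 2 of 8 members tested, while 8.81% of 19340 genes with an H4ac summit were called gained in this comparison and 0.729% lost. JAZ8 is a repressor that lacks the canonical degron and is stable in the presence of the hormone, and *JAZ10* gives splice forms that resist degradation. The H4ac value of *JAZ8* stood at 0 for both mock WT libraries and reached 6.8 and 7.4 after MeJA. Its peaks in WT +MeJA were 1637 and 1585 bp long with 231 and 285 tags, and their scores were 188.64 and 153.73, well above the MACS cutoff of 50 (the score grows with the negative log10 of the peak's p-value). They began 389 and 372 bp before the start, so they covered the promoter window printed above and its G-box. Both WT libraries were without a peak there, and WT replicate 2 was the shallowest H4ac library, at 3235473 tags.

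At *JAZ10* the H4ac value rose from 3.3 and 3.72 for mock WT to 8.55 and 10.7 for WT +MeJA, a ratio of 2.59 in replicate 1 and 2.87 in replicate 2. The lowest WT +MeJA value was above the highest value in any other group, 8.03 in *axe1-5* +MeJA replicate 2. The median fold enrichment of the whole peak list was itself 1.56 and 1.46 times higher in WT +MeJA, and divided by it the *JAZ10* ratios were 1.66 and 1.96, below 2. The peak also grew. Its length was 1807 and 1497 bp for mock WT against 5593 and 5808 bp for WT +MeJA, where it ran from 1082 and 1156 bp before the start to 2219 and 2360 bp past the end of the gene. Tag density (tags of the peak per kb and per 1000000 retained tags) was 14.0 and 17.5 for mock WT against 18.9 and 19.4 for WT +MeJA. Part of the growth joined neighbouring signal, since WT replicate 1 listed a separate peak with its summit 823 bp past the end of *JAZ10*. Another annotated gene, AT5G02045, overlaps *JAZ10*, and every summit counted for *JAZ10* lay in *JAZ10* alone.

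*JAZ9*, whose protein binds MYC factors, was the only member whose H4ac summit value was higher in every MeJA library than in any mock library. Its H4ac value was 3.07 and 0 for mock WT, 5.92 and 7.81 for WT +MeJA, 0 and 0 for mock *axe1-5*, and 4.39 and 5.46 for MeJA-treated *axe1-5*. With MeJA it was 5.9 ± 1.43 against 0.767 ± 1.53 without (mean ± SD, n = 4 each), and 10.9% of the 19340 genes likewise had no overlap and a higher MeJA group. The exact permutation test over the 8 libraries (two-sided) gave p = 0.0286, the smallest p that 70 arrangements allow, and a Benjamini-Hochberg adjusted p of 0.26. In WT the rule missed it because replicate 1 had a ratio of 1.93, just under 2. In *axe1-5*, where mock libraries had no peak, *JAZ9* was called gained after MeJA. On the log2(value + 1) scale, limma gave *JAZ9* a MeJA difference of 2.26 with an adjusted p of 0.0451, and 6.31% of genes were called higher with MeJA in that fit. That fit is not centred, and its median gene was 0.43 higher with MeJA. The *JAZ9* difference rests on values of 0, written where no peak was listed, in WT replicate 2 and both mock *axe1-5* libraries. WT replicate 2 was the shallowest H4ac library, at 3235473 tags, and every MeJA library was deeper than any mock one.

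The other gain after MeJA within *axe1-5* was *JAZ5*, so 2 of 8 members were called there against 4.82% of genes. None was lost, against 3.47%. The *JAZ5* call turned on where the summit fell. Its value was 0 and 6.69 for mock WT, 0 and 0 for WT +MeJA, 0 and 0 for mock *axe1-5*, and 6.82 and 10.0 for MeJA-treated *axe1-5*. Peaks nonetheless covered 82.4 to 100% of *JAZ5* in all 8 libraries. In the 5 libraries at 0 the summit of the covering peak lay in AT1G17370, which begins 11 bp downstream. Counting any overlapping peak, the *JAZ5* value was 8.4 and 7.61 for mock WT, 10.9 and 10.2 for WT +MeJA, 5.56 and 7.83 for mock *axe1-5*, and 9.37 and 10.0 for MeJA-treated *axe1-5*, and it was called in no comparison. By overlapping peaks *JAZ5* was nonetheless higher in every MeJA library than in any mock one, as *JAZ9* was. The share of all genes doing so by overlap was not computed. Overlapping peaks left *JAZ9* as the only member gained after MeJA in *axe1-5*.

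In mock conditions *axe1-5* differed from WT at *JAZ3*, *JAZ6* and *JAZ8*. *JAZ3* is the gene first found through a dominant jasmonate-insensitive mutant. Its H4ac value was 4.19 and 5.83 for mock WT, 7.98 and 6.36 for WT +MeJA, and 0 in each of the 4 *axe1-5* libraries. The WT peaks were 1286 to 1484 bp long and had their summits 357 to 491 bp past the start, in an exon part that is not coding, and they spanned the G-box nearest the start. *JAZ3* was the member called lost in *axe1-5* (1.3% of 19340 genes were) and in *axe1-5* +MeJA against WT (3.67% were). All 4 *axe1-5* libraries lay below all 4 WT libraries at *JAZ3*, with 0.662% of genes doing so (exact permutation p = 0.0286, the smallest allowed, adjusted p = 0.725). *JAZ3* entered that test through its WT peaks alone, so the split and its p only restate where peaks were listed. The WT values were modest. The mock WT scores were 71.11 and 95.37, so with a minimum score of 100 both calls of *JAZ3* ended. A second peak, at the 3′ end with its summit in AT3G17880, touched *JAZ3* in the 4 WT libraries and in *axe1-5* replicate 1, and counting it ended the mock call but not that in *axe1-5* +MeJA.

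*JAZ6*, a member known for a part in the daily rhythm of resistance to a fungus, went the other way. Its H4ac value was 0 in all 4 WT libraries, 4.22 and 5.46 for mock *axe1-5*, and 5.65 and 5.35 for MeJA-treated *axe1-5*. All 4 *axe1-5* libraries were above all 4 WT libraries, with 3.28% of genes doing so (5.17 ± 0.645 against 0, SD over n = 4, exact permutation p = 0.0286, adjusted p = 0.725). Here too the gene entered the test through 1 genotype alone, its *axe1-5* peaks, so the split and its p only restate where peaks were listed. *JAZ6* and *JAZ8* were 2 of 8 members called gained in *axe1-5*, against 7.37% of genes, and *JAZ6* alone was gained in *axe1-5* +MeJA against WT, where 16.1% were.

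The extent of the peaks adds a second reading of *JAZ6*. H4ac peaks covered 15.2% and 3.28% of the gene for mock WT, 100% in both WT +MeJA libraries, 82.1% and 90.4% for mock *axe1-5*, and 83.5% and 89.0% for MeJA-treated *axe1-5*. In WT +MeJA, peaks of 4360 and 4304 bp ran from the *JAZ6* promoter into AT1G72440, which begins 32 bp downstream, and had their summits 456 and 473 bp past the end of *JAZ6*, so the summit rule returned 0. In *axe1-5* the same stretch was listed as separate peaks, of which that in *JAZ6* had its summit 453 and 475 bp past the start. The WT libraries had only the downstream peak. By cover, then, *JAZ6* was low in WT and high in the other 3 groups. Counting any overlapping peak, which brings in the downstream summit, ended both calls of *JAZ6* and gave it a genotype difference of −0.02 on the log2 scale (limma, adjusted p = 0.961). Cover of a gene rose from at most 25% to at least 75% in both replicates at *JAZ6* and *JAZ8* in WT +MeJA (1.86% of 24458 genes touched by an H4ac peak), at the same pair in *axe1-5* (3.19%), and at *JAZ6* in *axe1-5* +MeJA (7.13%). This measure was added after the peaks had been seen.

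**Figure D2:**
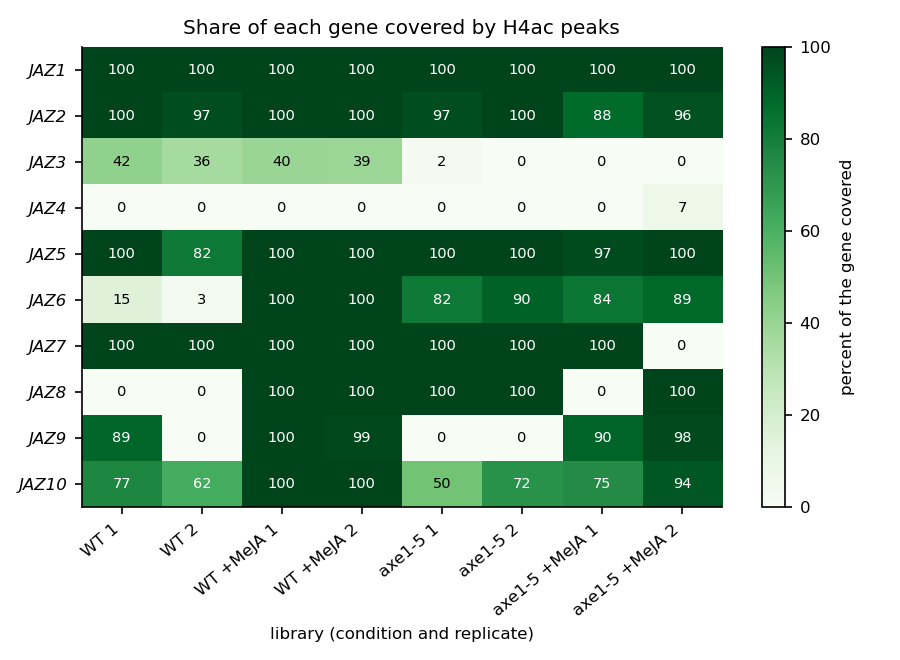
Share of each *JAZ* gene covered by H4ac peaks, in percent, with genes in rows and the 8 libraries in columns. *JAZ6* had 15.2% and 3.28% in WT and at least 82.1% elsewhere, *JAZ3* had at most 2.22% in the *axe1-5* libraries, and *JAZ4* was at 0 in 7 libraries.

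By cover, *JAZ6* and *JAZ8* both rose from mock WT to WT +MeJA and to mock *axe1-5*. By summit, *JAZ8* was the only member called gained in both comparisons, and mock WT had no peak there. The *axe1-5* mock values were 3.58 and 6.24, with scores of 62.37 and 52.11, close to the cutoff of 50. The *axe1-5* +MeJA values were 0 and 7.05, the latter with a score of 59.04. The peaks in *axe1-5* thus had lower scores than those in WT +MeJA, and the tag density was 14.2 and 12.4 for mock *axe1-5*, 12.3 for *axe1-5* +MeJA replicate 2, and 16.2 and 18.3 for WT +MeJA. With a minimum score of 100 the calls of *JAZ6* and *JAZ8* in *axe1-5* ended, and *JAZ8* remained gained in WT +MeJA. A peak this close to the cutoff can drop out of a list with little change in tags, and a value of 0 means only that no peak was listed.

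*JAZ10* in *axe1-5* lay between. Its H4ac value was 3.52 and 6.46 without and 5.35 and 8.03 with MeJA, ratios of 1.52 and 1.24, below the rule, and the groups overlapped. Over the 8 libraries the *JAZ10* value was 8.15 ± 2.18 with MeJA and 4.25 ± 1.48 without (SD, n = 4 each, exact permutation p = 0.0571, adjusted p = 0.281). In the limma fit over 8220 genes with a summit in all 8 libraries, each library centred on its median, *JAZ10* had a MeJA difference of 0.48 (SE 0.14) on the log2 scale with an adjusted p of 0.187. That fit called 0.0% of genes for MeJA (886 had an unadjusted p under 0.05), 3.8% for genotype and 0.0% for the interaction (666 unadjusted). Without centring, the *JAZ10* difference was 0.95 with an adjusted p of 0.00714, but then the median gene was 0.46 higher with MeJA and 33.4% of genes were called higher. Over all settings tried the adjusted p for *JAZ10* and MeJA ran from 0.00714 to 0.431. The MeJA effect at *JAZ10* was smaller in *axe1-5* than in WT by 0.59 (SE 0.27), which did not pass, adjusted p = 0.585.

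Upstream cover of *JAZ1* and *JAZ10* grew after MeJA in WT. In the 2000 bp before the start, H4ac peaks covered 152 and 314 bp of *JAZ10* for mock WT against 1636 and 1787 bp for WT +MeJA. Mock *axe1-5* had 765 and 784 bp of cover, and with MeJA it had 816 and 1898 bp. This cover counts every peak in the window, also peaks apart from the gene. The peak over *JAZ10* itself began 152 and 85 bp before the start in mock WT and 1082 and 1156 bp in WT +MeJA. In *axe1-5* it began 150 and 136 bp before the start in mock and 223 and 1257 bp with MeJA. The *JAZ1* cover was 250 and 77 bp for mock WT against 1918 and 1966 bp for WT +MeJA. The deposited FDR of the *JAZ1* peak was 1.01% and 5.93% in mock WT and 26.09% and 14.51% in WT +MeJA. Upstream cover was not computed under the 5 percent FDR filter. The *JAZ1* cover was 74 and 209 bp for mock *axe1-5*, and 38 and 1803 bp with MeJA. *JAZ1* and *JAZ10* were thus the members with at least 500 bp more upstream cover after MeJA in both WT replicates (3.77% of 24458 genes). No member had it in both replicates of *axe1-5* (3.28% of genes did). The difference between genotypes was not tested, and *axe1-5* +MeJA replicate 2, the deepest library at 14717755 tags, resembled WT +MeJA at both genes.

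**Figure D3:**
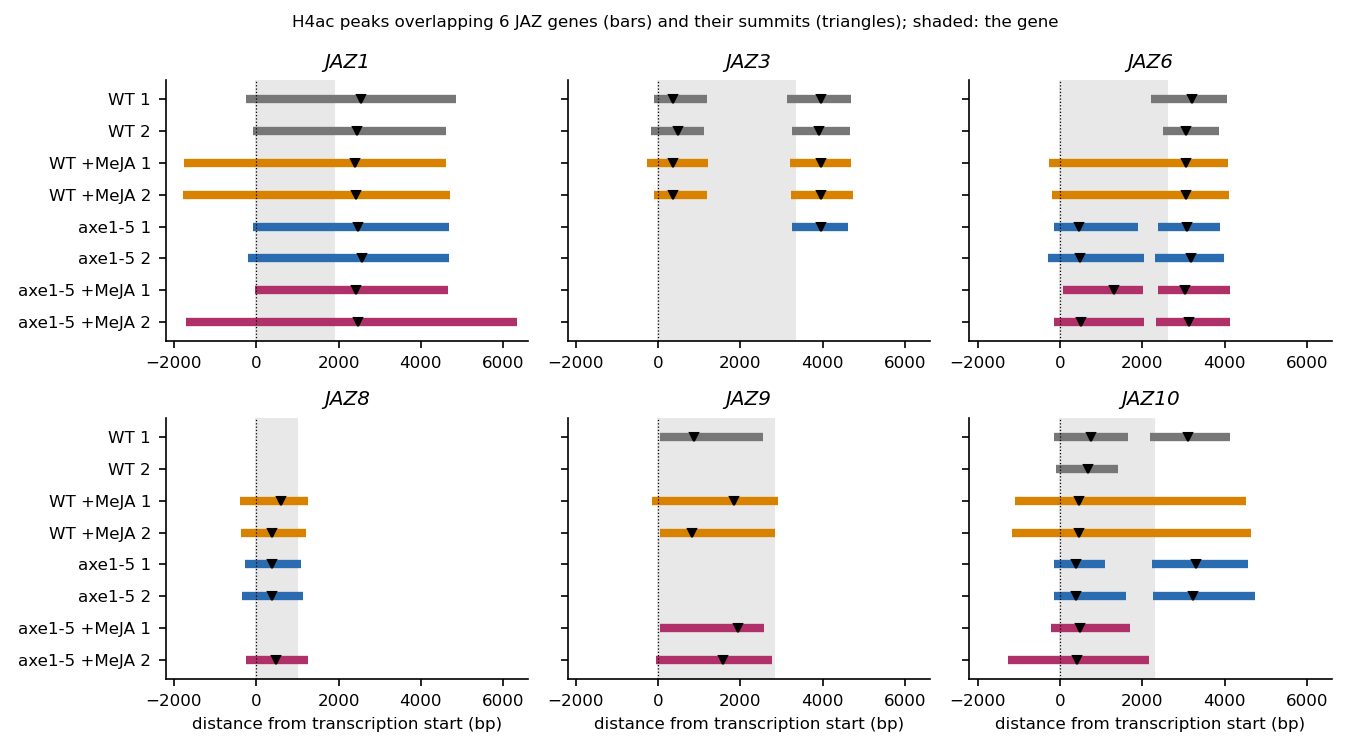
H4ac peaks (bars) and their summits (triangles) at 6 *JAZ* genes, by distance from the transcription start in bp along the gene, with 1 line per library and the gene shaded. In WT +MeJA the peaks of *JAZ1* and *JAZ10* began 1082 to 1787 bp before the start, the *JAZ6* gene lay inside a peak of 4304 bp or more, and *JAZ8* had a peak that mock WT lacked.

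*JAZ1*, whose protein also recruits HDA6 to repress the transcription factors EIN3 and EIL1, never held a summit of its own. A peak covered 100% of it in all 8 libraries, with the summit 507 to 678 bp past its end, in AT1G19190, which begins 154 bp downstream. The peak was long in every library, from 4696 to 8036 bp, while at most 5.11% of the peaks of an H4ac list reached 4000 bp. Its fold enrichment was 9.14 and 9.65 for mock WT, 9.98 and 11.4 for WT +MeJA, 9.12 and 12.2 for mock *axe1-5*, and 8.81 and 12.7 for MeJA-treated *axe1-5*. These groups overlapped. Since the summit is in the neighbour, these values of *JAZ1* describe a shared domain.

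*JAZ2* and *JAZ7* had H4ac before and after MeJA. *JAZ2*, known from guard cells, had 6.88 and 8.74 for mock WT, 9.96 and 8.49 for WT +MeJA, 5.36 and 10.2 for mock *axe1-5*, and 5.61 and 8.1 for MeJA-treated *axe1-5*. Its summits all lay 248 to 354 bp past the start, and the groups overlapped. The centred fit gave *JAZ2* a MeJA difference of −0.41 (SE 0.14, adjusted p = 0.256) and a genotype difference of −0.36 (SE 0.14, adjusted p = 0.16). Without centring the MeJA difference of *JAZ2* was 0.06, so its direction depends on the scale. *JAZ7*, which is like *JAZ8* in lacking the canonical degron, had 4.27 and 6.01 for mock WT, 6.43 and 5.42 for WT +MeJA, 5.58 and 6.01 for mock *axe1-5*, and 5.51 and 0 for MeJA-treated *axe1-5*. The missing *JAZ7* peak was in the deepest library, in which the lowest listed fold enrichment was 4.4, and in the other 7 libraries its values spanned only 4.27 to 6.43.

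H3K27me3 was found at *JAZ4*, a member with roles in development and cold tolerance, and at *JAZ10*. *JAZ4* had no H4ac summit in any library. Its H3K27me3 value was 0 and 0 for mock WT, 0 for WT +MeJA replicate 2, 5.86 and 0 for mock *axe1-5*, and 5.38 and 5.01 for MeJA-treated *axe1-5*. These peaks had their summits 293 to 548 bp past the start and were 463 to 3219 bp long. *JAZ4* was called gained in *axe1-5* +MeJA, as were 11.8% of the 6900 genes with an H3K27me3 summit. No member was gained in WT +MeJA (6.67% of genes, replicate 2 only) or in *axe1-5* (2.99%). None was lost in *axe1-5* (2.0%) or *axe1-5* +MeJA (1.87%).

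The *JAZ10* H3K27me3 value was 0 and 9.05 for mock WT, 0 for WT +MeJA replicate 2, 5.26 and 0 for mock *axe1-5*, and 4.65 and 5.03 for MeJA-treated *axe1-5*. Presence followed depth. *JAZ10* had a summit in all 4 libraries above 5000000 retained tags and in none of the 3 below 2000000 (1976886 in WT replicate 1, 1439377 in *axe1-5* replicate 2 and 577986 in WT +MeJA replicate 2). At *JAZ4* the same 3 libraries were at 0, but so was WT replicate 2 with 8681380 tags, so that the only deep library without *JAZ4* was the WT one. The lowest fold enrichment listed in that library was 4.63, close to the *JAZ4* values of 5.01 to 5.86 where a peak was listed. A loss with MeJA in WT could not be assessed for either gene at 577986 tags. The fragment length that MACS estimated was also unequal, 282 and 209 bp in *axe1-5* replicate 1 and *axe1-5* +MeJA replicate 2 and 52 to 61 bp in the other 5, and the *JAZ4* and *JAZ10* peaks were longest in those 2 libraries. The part of depth and fragment length in these values was not tested.

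**Figure D4:**
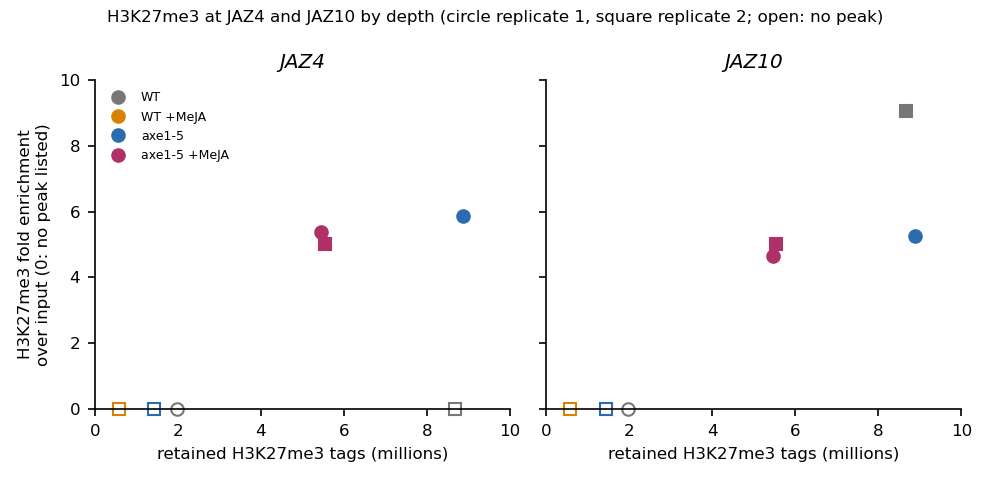
H3K27me3 fold enrichment over input at *JAZ4* and *JAZ10* (vertical axis) against the retained tags of the library (horizontal axis), with 1 symbol per library, open and at 0 where no peak was listed. The 3 libraries below 2000000 tags were at 0 for both genes, and WT replicate 2, at 8681380 tags, was at 0 for *JAZ4* and at 9.05 for *JAZ10*.

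*JAZ10* was the member with both marks. In WT replicate 2, *axe1-5* replicate 1 and both *axe1-5* +MeJA replicates it held an H4ac and an H3K27me3 summit in the same condition and replicate number. The H3K27me3 summits lay 324 to 872 bp past the start, and the H4ac summits of the same conditions and numbers lay 386 to 670 bp past it. Whether the marks share cells or nucleosomes cannot be told apart in whole seedlings.

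Among 32 other genes of the pathway, 31 had an H4ac summit, and 4 were called gained in WT +MeJA against 8.81% of all genes. These were the jasmonate biosynthesis genes *LOX2*, *AOC2* and *AOC3* and the response gene *VSP1*. *AOC3* had 3.81 and 3.53 for mock WT, 9.58 and 10.2 for WT +MeJA, and 7.69 and 8 for mock *axe1-5*. *VSP1* was at 0 in mock libraries of both genotypes and had 5.32 and 5.43 for WT +MeJA and 4.66 and 7.28 for MeJA-treated *axe1-5*. In *axe1-5* 2 were gained, *AOC2* and *AOC3*, against 7.37% of all genes. In *axe1-5* +MeJA 7 were gained relative to WT, where 16.1% of all genes were, which added *TIFY8*, *LOX3*, *LOX4* and *AOC1* to *AOC2*, *AOC3* and *VSP1*, and *VSP1* alone was gained relative to *axe1-5*, where 4.82% were. *MYC2*, the main target of JAZ repression, and *JAZ12* were lost in *axe1-5* +MeJA relative to WT (3.67% of all genes) and to *axe1-5* (3.47%). *MYC2* had 8.28 and 9.18 for mock WT, 14.2 and 16.7 for WT +MeJA, 8.87 and 13.8 for mock *axe1-5*, and 0 and 0 for MeJA-treated *axe1-5*. Overlapping peaks of 10.9 and 12.0 still touched *MYC2* in that last group, with their summits outside the gene. *JAZ12* had no overlapping H4ac peak in either library of that group. For H3K27me3, 8 of the 32 had a summit and *LOX2* was gained in *axe1-5* +MeJA, as were 11.8% of the 6900 genes.

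The 3 genes whose centred H4ac profile over the 8 libraries was most like the mean of *JAZ2* and *JAZ10* were *GH9A1* (Pearson r = 0.948), AT2G38000 (0.923) and AT2G04700 (0.919). They come from 8218 genes compared over 8 libraries that share depth and input, and 9 genes had an r above 0.9. No p is given for this likeness. The centred MeJA differences of *JAZ2* and *JAZ10* had opposite signs (−0.41 and 0.48), so their mean need not follow either gene, nor the other members.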

How the data were processed

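Whole seedlings of WT (DR5) and *axe1-5*, with or without MeJA, were used for ChIP-Seq (15 antibody libraries and 8 inputs; the inputs were not analysed here as files of their own). Per the file headers and the submitters' processing notes, the authors trimmed reads with Trimmomatic 0.36.5, mapped them with Bowtie to TAIR10 and called peaks per library against the matching input with MACS 1.4.2. The deposited lists give each peak's tag count, a score (scaled from the negative log10 of the p-value, cutoff 50, the name of the column being damaged in the files), a fold enrichment over input (a ratio) and an FDR in percent. The deposited FDR was used only as an alternative filter.

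Peaks were assigned to the loci of RefSeq TAIR10.1, whose nuclear chromosomes have the coordinates of TAIR10, by summit (start plus offset) with Python 3.11.15, or by any overlap of 1 bp. Gains followed the rule of the study's methods (in both replicates), to which the matching of libraries by replicate number, the comparison with mock *axe1-5* and the mirror-image rule for losses were added. Values of genes with a summit in all 8 H4ac libraries were log2-transformed, centred per library and fitted with limma 3.58.1 in R 4.3.3, with group means and Benjamini-Hochberg adjustment over all genes tested. Exact permutation tests used 4 against 4 libraries. Fit and rule were tested on simulated data. The labels do not say which replicates came from separate cultures, so p-values measure only the spread between these libraries. The members and gene lists were chosen with earlier results of these data known. All 10 members are named, other pathway genes where a call was made, and the 3 genes most like the mean of *JAZ2* and *JAZ10* in the fit. Alternatives were overlap, a minimum score of 100, a maximum FDR of 5 percent, 1.5-fold and 3-fold thresholds, division by the list median, no centring, log2(value + 1), a replicate block and leaving out each library. An equal number of peaks per list and the cover measures were added after the data had been seen.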

Additional observations from a re-analysis of the deposited data

Results flagged for a closer look

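At *JAZ8* the H4ac difference between *axe1-5* and WT took opposite signs without and with MeJA. In mock it was 3.58 and 6.24 in replicates 1 and 2, and with MeJA it was −6.8 and −0.35, so the mean difference changed by −8.48. The pairs are same-numbered libraries only. In limma's fit of log2(value + 1) the *JAZ8* interaction was −4.04 with an adjusted p of 0.261.

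At *JAZ10* the same differences were 0.22 and 2.74 in mock and −3.2 and −2.63 with MeJA, a change of −4.4. The limma interaction of *JAZ10* was −0.59 with an adjusted p of 0.585.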

How the results depend on the processing

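A gene is at 0 when no peak passed the caller's cutoff, which says nothing of the level below it. Depth spanned 3235473 to 14717755 H4ac tags and 577986 to 8879066 H3K27me3 tags. Of 170 pairs of a count of members and an alternative, 142 stayed within 1.5 times the count reported, though not always with the same members. The 142 include counts of 0 that stayed at 0, so they do not measure how stable the calls are.

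Among H4ac gains, WT +MeJA fell from 2 to 1 member with a 3-fold threshold or division by the list median. In *axe1-5* the count fell from 2 to 1 by overlap and to 0 with scores of at least 100 or equal numbers of peaks. In *axe1-5* +MeJA against WT it went from 1 to 0 under the same 3 settings and to 2 at 1.5-fold, and against *axe1-5* from 2 to 1 by overlap. H4ac losses in *axe1-5* went from 1 to 0 by overlap or with scores of at least 100, and in *axe1-5* +MeJA from 1 to 2 with equal numbers of peaks. With scores of at least 100 the latter count stayed at 1 but the member was *JAZ7* in place of *JAZ3*, and *JAZ3* joined *JAZ8* and *JAZ10* among the gains in WT +MeJA. The H3K27me3 gain of *JAZ4* in *axe1-5* +MeJA ended, at 0, with equal numbers of peaks.

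Leaving out a replicate gave 2 to 4 H4ac gains in *axe1-5* +MeJA against WT, 0 to 1 H4ac losses in WT +MeJA, 2 to 2 in *axe1-5*, 1 to 2 in *axe1-5* +MeJA against WT and 1 to 1 against *axe1-5*. For H3K27me3 it gave 0 to 2 gains in *axe1-5* and 1 to 2 in *axe1-5* +MeJA, and 0 to 1 losses in *axe1-5*.

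Without centring, the limma fit called 1 member for MeJA (*JAZ10*). With log2(value + 1) it called 1 for MeJA (*JAZ9*) and 2 for genotype (*JAZ3* and *JAZ6*). *JAZ9* was at 0 in every mock library but WT replicate 1, so its call rests on unlisted peaks. *JAZ3* and *JAZ6* were each listed in libraries of 1 genotype only and at 0 in all of the other. These 2 genotype calls thus follow from how the genes entered the fit. Leaving out each library in turn called none, with *JAZ10* MeJA differences of 0.40 to 0.57. The *JAZ2* MeJA difference reversed to 0.056 without centring and 0.048 with log2(value + 1). The *JAZ2* interaction, 0.02, reversed to −0.381 and −0.342 under the same settings and ran from −0.17 to 0.21 when a library was left out. The cause of these changes was not tested.

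Same-numbered libraries did not deviate together (correlations from −0.0479 to 0.0284 over 8220 genes). This cannot show whether same-numbered samples were grown or processed together. With the replicate block the fit called 0 members for MeJA, 0 for genotype and 0 for the interaction, and 270 genes for genotype in place of 312. Without matching by number (no replicate block), no count of members moved beyond 1.5 times.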
